A study of Homo sapiens with 9 samples.

Results

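The 3 libraries labelled sgCtrl, out of 9 in the series, were described here on their own, across genes and without any comparison between groups. They were chosen by their sample labels, and no measured value entered the choice. The cells are MDA-MB-231, an established human breast cancer line of the triple-negative type, first grown from the pleural fluid of a patient with metastatic disease. By the series title they were kept in hypoxia, meaning reduced oxygen, for 6 h. The genotype label sgCtrl was read as a control guide RNA, which the labels do not spell out. The other 6 libraries, labelled sgL1, were used in no result here. The study's design text names knockout of UFL1 or UFM1, genes of UFMylation, a pathway that couples the small protein UFM1 to its targets, chiefly on the endoplasmic reticulum (ER).

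Oxygen-starved cells respond largely through the hypoxia-inducible factors (HIFs). In normal oxygen, prolyl hydroxylases mark the HIF alpha subunits for destruction by a ligase that contains VHL. In low oxygen the subunits persist, pair with the beta subunit ARNT and switch on genes for glucose uptake, glycolysis, blood vessel growth and acid export. HIF alpha is controlled mainly as a protein, so its transcript level says little about its activity. Triple-negative cells lack oestrogen receptor, progesterone receptor and extra copies of HER2 (ERBB2). MDA-MB-231 is used as a mesenchymal-like, invasive member of that class. All 3 libraries were hypoxic, so none of the levels below can be ascribed to hypoxia, and the labels do not say whether the libraries came from separate cultures.

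Each library held 15622230 to 15868490 counts on named genes. Levels are given as TPM, the abundance of a transcript per length within a library, the deposited FPKM rescaled to a total of 1000000 per library, which allows genes of different length to be compared. Values are listed in the order sgCtrl 1, 2 and 3, or as the mean ± SD over n = 3 libraries. A gene was called present at 1 TPM or more in all 3 libraries, and low at under 0.1 TPM in all 3. A count of 0 allows up to 3 counts, about 0.365 TPM for a gene with 2000 bases of exon. By these rules 11412 of 19895 protein-coding genes (57.4%) were present and 5231 (26.3%) were low, with a median of 4.39 TPM over all of them. The FPKM use all exon bases of a gene as its length, so a gene with many unused exons reads low. Where the length of the principal transcript alone raised a level by over 1.5 times, that second value follows in brackets. On that scale no level falls to much under 0.652 of its value, the ratio of genes such as MT-CO1 whose lengths are the same both ways, since the total is fixed. Several genes that every cell uses were listed at or near 0, among them MIF, EEF1G and PSMB3 with 0 counts and ACTN4 with 2, 5 and 2 counts. In the stretch of chromosome 6 from HLA-F to HLA-DPB1, 6 of 137 protein-coding genes were present, beside 56.6% on the rest of the chromosome. Without that stretch and without genes that share 50% or more of their exon bases, 60.1% of 18668 genes were present and 24.3% were low. A low value is therefore given as listed and not as absence.

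Transcripts of the mitochondrial genome were the most abundant. The list was led by MT-CO1, the catalytic subunit of cytochrome c oxidase, at 21774, 24043 and 22253 TPM. MT-CO3, another subunit of the same enzyme, followed at 17298, 17282 and 15897 TPM. Of the 25 protein-coding genes with the highest mean, 11 were mitochondrial. The 13 mitochondrial protein genes held 13.2 ± 0.194% of all TPM, while all 37 mitochondrial genes took 3.60 ± 0.0620% of the counts. TPM weighs every transcript equally whatever its length, and here unused exons lower the level of other genes. On principal transcript lengths a gene such as MT-CO1, whose lengths are the same both ways, falls to 0.652 of its level.

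Among nuclear genes, FTL, the light chain of the iron store ferritin, stood first at 9189, 9122 and 8803 TPM. IGFBP4, a secreted protein that binds insulin-like growth factors, was close behind at 7456, 7559 and 7573 TPM. Both ranked above EEF1A1, the main translation elongation factor, at 7063, 7388 and 7111 TPM. The remaining nuclear genes of the 25 were mainly of cell structure and protein folding. ACTG1 and ACTB, the cytoplasmic actins, were at 5802 ± 148 TPM and 5691 ± 60.8 TPM. HSP90AB1, HSP90AA1 and HSPA8, cytosolic chaperones, were at 4346 ± 64.3 TPM, 2716 ± 50.5 TPM and 3485 ± 107 TPM. MT2A, a metallothionein that binds zinc and copper, was at 3974, 2910 and 3890 TPM, lowest in sgCtrl 2. HMGA1, an architectural chromatin protein often high in aggressive tumours, was at 2833 ± 89.5 TPM, and the glycolytic enzyme GAPDH at 3610 ± 106 TPM. Neighbours in this order could often not be separated: the library values of 14 of the 24 neighbouring pairs overlapped. By the principal transcript's length 20 of the 25 stayed in the list, the order of ACTG1 and ACTB turned round, and the 5 that entered were AHNAK and the ribosomal protein genes RPL12, RPL13A, RPL19 and RPLP0.

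Abundance was steeply graded. The 10 most abundant genes held 13.4 ± 0.203% of TPM and the 50 most abundant 24.9 ± 0.124%. In sgCtrl 1, 2 and 3, 544, 565 and 546 genes made up 50% of it. The median present gene stood at 26.0 TPM, 1623 genes reached 100 TPM and 61 reached 1000 TPM in all 3 libraries. The 84 cytosolic ribosomal protein genes together took 5.34 ± 0.201% and the 31 listed actin and calcium-binding genes 2.94 ± 0.0521%. Among the latter, the actin monomer binder TMSB10 was at 3143, 2627 and 3260 TPM and the calcium-binding S100A6 at 1904, 1562 and 1982 TPM, both lowest in sgCtrl 2.

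**Figure D1:**
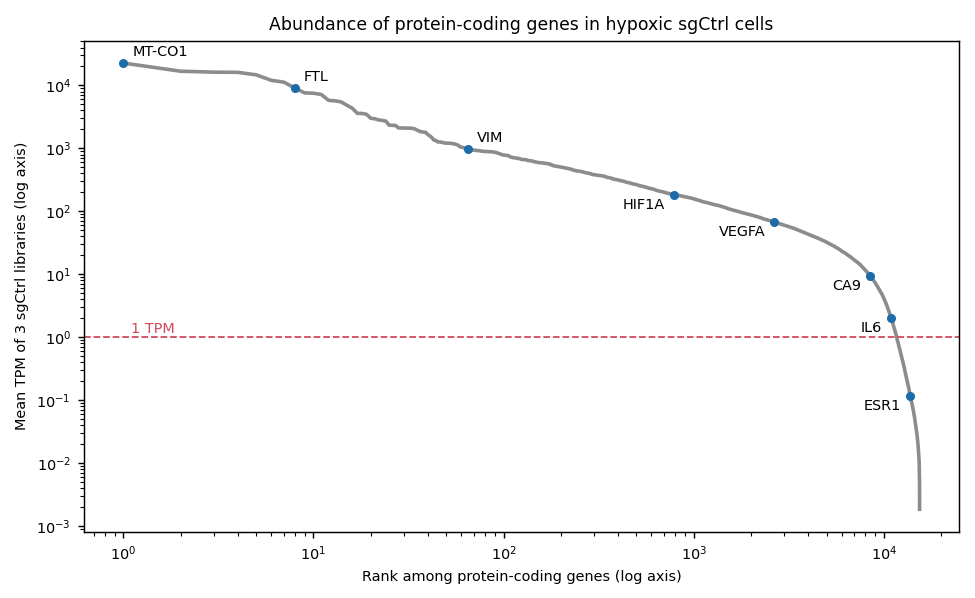
Mean TPM of the 3 sgCtrl libraries (log axis) against rank among protein-coding genes (log axis), with the present threshold of 1 TPM dashed and 8 genes marked. The curve falls from 22690 TPM at MT-CO1 through 968 TPM at VIM and 68.1 TPM at VEGFA to 0.117 TPM at ESR1.

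Long noncoding genes were far less often present, 1711 of 14950 (11.4%), and held 1.56 ± 0.0293% of TPM. NORAD, a cytoplasmic RNA that sequesters Pumilio proteins, was at 253, 258 and 256 TPM. The snoRNA host genes GAS5 and SNHG5 were at 171 ± 11.7 TPM and 159.5 ± 13.8 TPM. HIF1A-AS2, antisense to the HIF1A gene, was listed at 109, 114 and 97.3 TPM. Of the 19 listed long noncoding RNAs 14 were present, while HOTAIR and MEG3 had 0 counts. AC099850.3 ranked first among this type at 303 ± 21.2 TPM, but 30.2% of its exon bases are shared with another gene. Strand use in counting is not given in the sources used here. Reads of an antisense RNA and of its partner therefore cannot be told apart.

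Of 48 nuclear hormone receptors, transcription factors switched by steroids, lipids or other small ligands, 27 were present (56.2%, near the 57.4% of all) and 7 were low. Over all protein-coding genes 26.3% were low, a larger share than among these receptors. The oestrogen receptor gene ESR1 carried 9, 5 and 6 counts, or 0.157, 0.0874 and 0.105 TPM. PGR, the progesterone receptor, had 14, 23 and 17 counts, a mean of 0.283 TPM. ESR2, the second oestrogen receptor, was at 0.492, 0.493 and 0.522 TPM (1.48 on the principal transcript). All 3 receptors had reads in every library and stayed below the present threshold, which ESR2 passed on its principal transcript. Other receptors of the list stood higher. NR2F2 (COUP-TFII), an orphan receptor of mesenchymal and venous cells, led at 156, 158 and 159.7 TPM. ESRRA, a regulator of mitochondrial genes, was at 88.3, 88.7 and 108 TPM, highest in sgCtrl 3. NR1H2 and NR2F6 were at means of 89.35 and 74.87 TPM, and NR3C1, the glucocorticoid receptor, was at 59.7 ± 3.36 TPM. PPARG, a lipid-sensing receptor, was at 55.9 ± 2.33 TPM (89.4 on the principal transcript). VDR, the vitamin D receptor, was at 17.8 ± 1.57 TPM, under the median of 20.6 TPM of the 27 present receptors.

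Of 54 receptor tyrosine kinases 24 were present (44.4%, against 57.4% of all protein-coding genes), 14 were low and 4 reached 100 TPM in all 3 libraries. The shares that were low or reached 100 TPM were close to those of all protein-coding genes, 26.3% and 8.16%. AXL, the receptor for GAS6 that is often high in mesenchymal tumour cells, was at 928, 972 and 962 TPM. EPHA2, an ephrin receptor, was at 682, 694 and 694 TPM. EGFR, the epidermal growth factor receptor, was at 207, 213 and 211 TPM, and MET, the hepatocyte growth factor receptor, at 121, 130.1 and 123 TPM. These 4 did not overlap one another in the 3 libraries. ERBB2 (HER2) was at 20.7, 18.2 and 20.5 TPM, and EGFR was at 10.7 ± 0.910 times its level (5.98 ± 0.511 times on the principal transcripts). ERBB3 was at 2.23 ± 0.233 TPM. At the other end KIT had 1, 0 and 1 counts, PDGFRA 2, 1 and 1, ERBB4 0, 2 and 2 and FLT3 0. Among the 23 neighbouring pairs of present kinases 10 overlapped.

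The integrins, which hold cells to the matrix, were present in 12 of 26 subunit genes (46.2%, against 57.4% of all), and those 12 had a median of 78.5 TPM. ITGB1, the common beta chain, was at 488, 527 and 493 TPM. Its laminin-binding partners ITGA6 and ITGA3 were at 375 ± 15.0 TPM and 345 ± 3.68 TPM, and the collagen-binding ITGA2 at 176 ± 8.19 TPM. The leukocyte integrins ITGA4 and ITGAL had 0 counts. TGFBR2, the type II receptor for TGF-beta, was at 403, 405 and 411 TPM, 5.84 ± 0.187 times its partner TGFBR1. F2RL1 (PAR2), a receptor cut open by proteases, led the 39 listed G protein-coupled receptors at 374, 381 and 372 TPM. ADGRE5, GPRC5A and the adenosine receptor ADORA2B followed at 135, 139.6 and 143 TPM, 125 ± 4.72 TPM and 94.0 ± 4.26 TPM. FZD2, a Wnt receptor, was at 142 ± 5.28 TPM and NOTCH2 at 112 ± 2.15 TPM. LRP6, a Wnt co-receptor in wide use, had 0 counts in all 3 libraries.

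Of 39 interleukin and cytokine receptors 24 were present (61.5%), led by IL6ST, the chain shared by the interleukin 6 family, at 177, 193 and 189.6 TPM, with OSMR, the oncostatin M receptor, at 85.5, 80.7 and 80.3 TPM. Of 29 TNF receptor genes 16 were present (55.2%), with TNFRSF12A, the receptor for TWEAK, at 293, 266 and 311 TPM and the TRAIL receptor TNFRSF10B at 137, 132 and 125 TPM. Chemokine receptors were present in 2 of 22 genes (9.09%, against 57.4% of all protein-coding genes). These were CXCR4, a receptor tied to breast cancer spread, at 6.19, 4.25 and 6.68 TPM, and CXCR6 at 2.12, 3.41 and 1.74 TPM. CXCR4 rested on 57, 39 and 61 counts. In all 3 libraries 10 of the 22 had 0 counts, against 22.4% of all protein-coding genes. CXCR1 and CXCR2, the receptors for CXCL8, were among the 10.

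**Figure D2:**
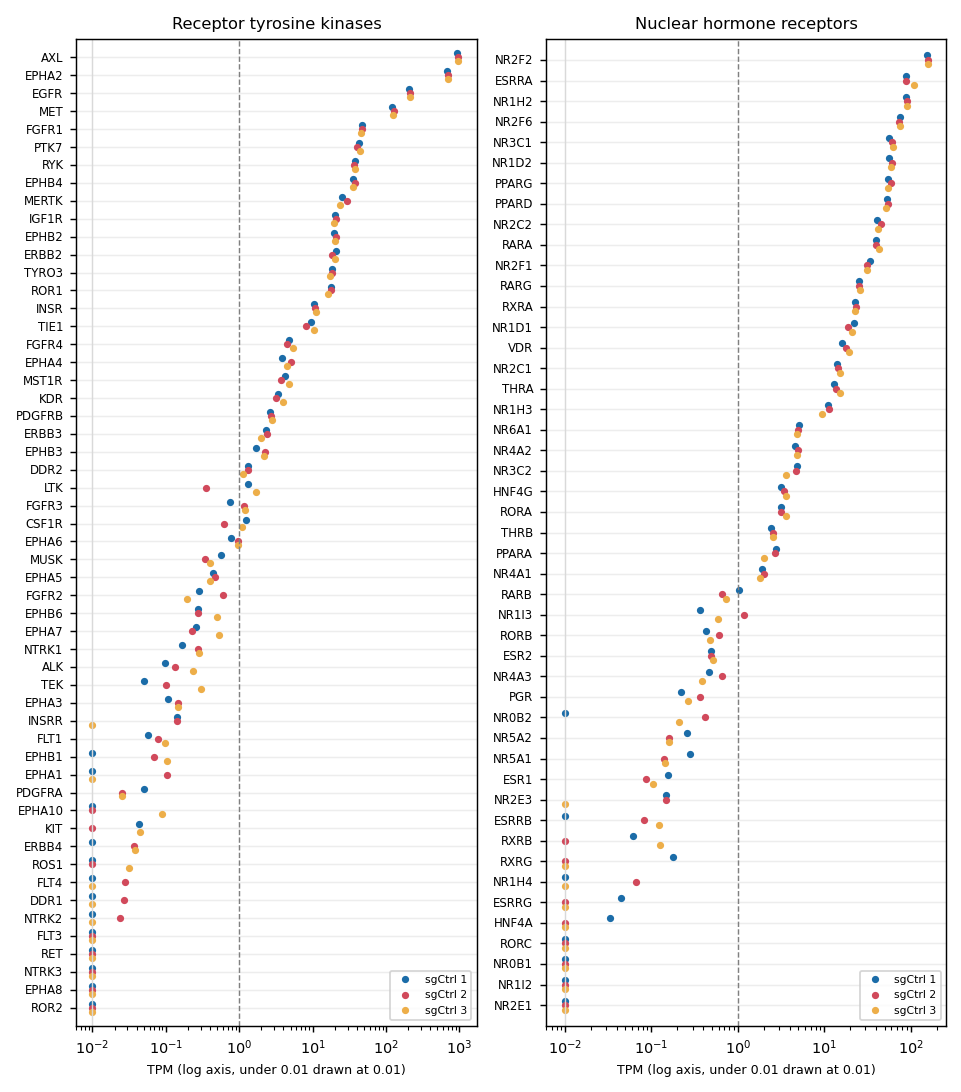
TPM (log axis) of receptor tyrosine kinases and nuclear hormone receptors in each sgCtrl library, 1 colour per library, with 1 TPM dashed and values under 0.01 drawn at 0.01. AXL and EPHA2 stand highest at 954 and 690.4 TPM, EGFR is at 210.1 TPM, and PGR and ESR1 lie at 0.283 and 0.117 TPM.

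The lineage genes were of mixed type. VIM, the intermediate filament of mesenchymal cells, was at 951, 1004 and 947 TPM (1524 on the principal transcript). KRT18 and KRT8, the paired keratins of simple and luminal epithelium, were at 305, 296 and 303 TPM and 225, 228 and 232 TPM (482 on the principal transcript). VIM was at 3.22 ± 0.156 times the level of KRT18. KRT7 and KRT19 were at 211 ± 6.19 TPM (321 on the principal transcript) and 163 ± 6.13 TPM, and KRT81 at 129.7 ± 8.21 TPM, although keratin paralogs are alike in sequence and could share reads. The basal keratins had few reads or none, with 0, 0 and 4 counts for KRT5, 0, 0 and 1 for KRT14 and 0 for KRT6B. Of 20 keratins 8 were present (40%, against 57.4% of all protein-coding genes) and 5 were low, where 26.3% of all were low. Among the present keratins 0 of the 7 neighbouring pairs overlapped.

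Cell junction genes were split. CDH1, E-cadherin, the adhesion molecule that defines epithelium, carried 3, 4 and 1 counts, a mean of 0.105 TPM. GRHL2, OVOL1 and RAB25, further epithelial genes, had 0 counts. Yet SPINT2, an epithelial protease inhibitor, was at 169, 163 and 170.5 TPM (315 on the principal transcript), CLDN4, a tight junction claudin, at 50.4, 50.4 and 49.4 TPM and EPCAM, the epithelial cell adhesion molecule, at 19.5, 24.1 and 23.4 TPM. In all 16 of 30 epithelial junction genes were present (53.3%, near the 57.4% of all protein-coding genes). Low members numbered 4, where 26.3% of all protein-coding genes were low. CDH2, N-cadherin, was not present either, at 0.634, 0.245 and 0.0984 TPM. Of the transcription factors that repress E-cadherin, ZEB1 was at 34.0, 36.0 and 37.6 TPM and SNAI2 at 18.2, 17.1 and 18.2 TPM, while TWIST1 and TWIST2 had 0 counts.

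Of 28 mesenchymal genes 19 were present (67.9%, near the 57.4% of all protein-coding genes), with NT5E (CD73), which makes adenosine at the cell surface, at 653, 683 and 662 TPM and CD44, the hyaluronan receptor, at 242, 256 and 245 TPM. CD24, the surface protein whose low level beside CD44 is used to mark stem-like breast cancer cells, was at 12.9, 14.3 and 14.2 TPM. CD44 was at 18.0 ± 0.774 times its level. Of 24 luminal breast genes 11 were present (45.8%, against 57.4% of all protein-coding genes), at a median of 0.277 TPM over the list. Of the luminal transcription factors FOXA1 was at 15.9 ± 1.68 TPM, GATA3 at 4.49 ± 0.317 TPM and SPDEF at 33.7 ± 2.73 TPM. ELF5, a further one, had 0 counts, as did the milk genes CSN2 and LALBA. TFF1, a secreted trefoil peptide best known as an oestrogen target, was nonetheless at 35.1, 30.3 and 29.2 TPM. Of 18 basal and myoepithelial genes 8 were present (44.4%), at a median of 0.224 TPM over the list. The highest were LAMB3, a laminin chain, at 628, 638 and 631 TPM and CAV1, the main protein of caveolae, at 435, 445 and 452 TPM.

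Markers of other cell types were taken as whole lists. In the order below, 18.8%, 45.5%, 45.5%, 16.7% and 0% of the members were present, beside 57.4% of all protein-coding genes. Of 16 leukocyte genes 3 were present and 6 had 0 counts, including PTPRC (CD45) and CD3E, where 22.4% of all protein-coding genes had 0 counts. The list summed to 130.8 to 141.6 TPM. Nearly all of that was LCP1, an actin-bundling protein also known from carcinoma lines, at 124, 129.7 and 122 TPM. Of 11 fibroblast and pericyte genes 5 were present, and the list summed to 189.7 to 196 TPM. The present members were MCAM at 175 ± 1.79 TPM, PDPN at 7.23, 9.54 and 8.41 TPM, CSPG4 at 3.57 ± 0.535 TPM, COL1A1 at 2.92 ± 0.567 TPM and PDGFRB at 2.72 ± 0.0788 TPM, while DCN, LUM and FAP had 0 counts. Of 11 endothelial genes 5 were also present, and they summed to 182.7 to 190.5 TPM. They were ESAM at 145 ± 2.21 TPM, EGFL7 at 25.5 ± 1.12 TPM, TIE1 at 9.56, 8.22 and 10.5 TPM, KDR at 3.49 ± 0.432 TPM and PECAM1 at 2.71 ± 0.414 TPM, while CDH5 carried 0, 0 and 2 and VWF 3, 0 and 3 counts. Of 12 adipocyte and neural genes 2 were present, MBP at 37.4 ± 0.841 TPM (211 on the principal transcript) and TUBB3 at 2.54 ± 0.426 TPM (4.14 on the principal transcript), and the list summed to 40.5 to 42.5 TPM. The 9 hepatocyte and gut genes, 0 of them present, summed to 0.448 to 1.62 TPM. The part of other cells in any level was not tested.

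**Figure D3:**
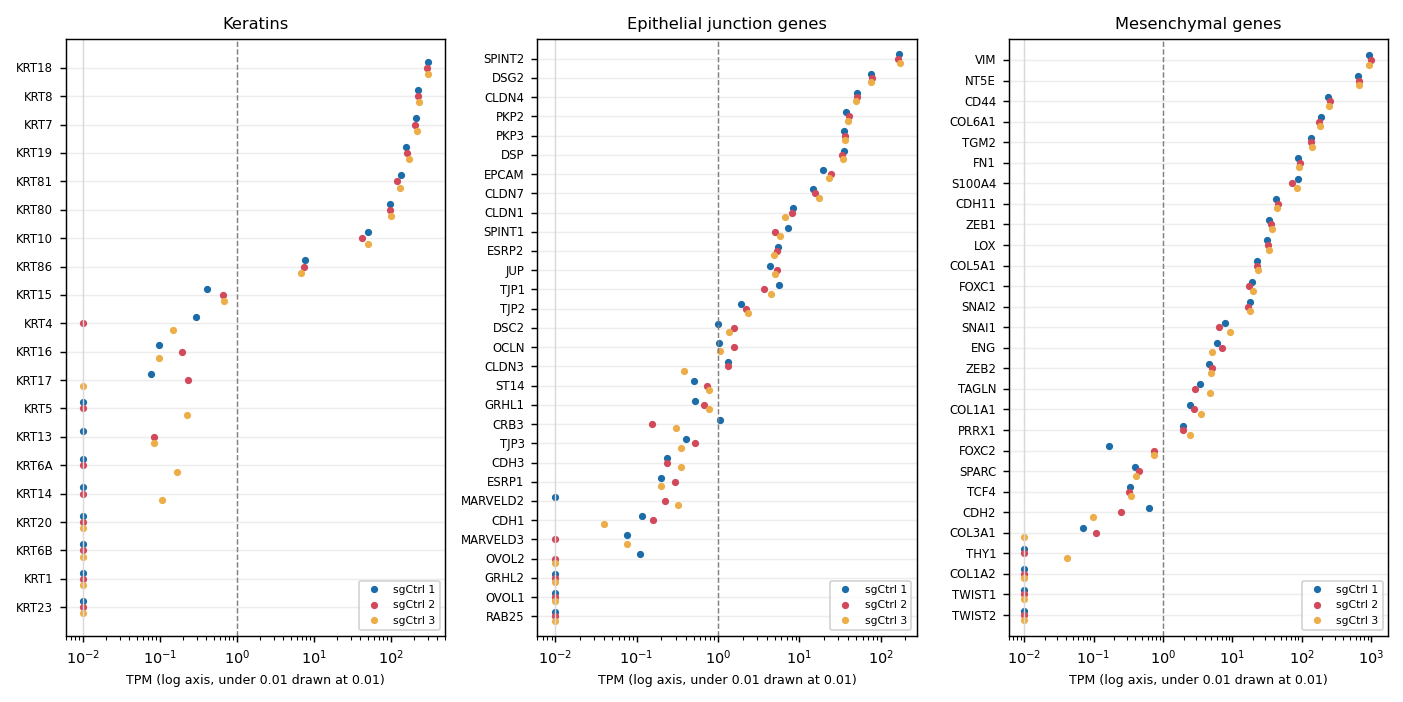
TPM (log axis) of keratins, epithelial junction genes and mesenchymal genes in each sgCtrl library, with 1 TPM dashed and values under 0.01 drawn at 0.01. KRT18 at 301 TPM and VIM at 968 TPM lead their panels, and CDH1 lies at 0.105 TPM near the foot of the junction genes.

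Secreted products were led by matrix-linked proteins. The 291 listed secreted genes held 2.40 ± 0.0123% of TPM. Of them 163 were present, a share close to the 57.4% of all protein-coding genes. Besides IGFBP4, the matricellular proteins CYR61 (CCN1) and CTGF (CCN2), both targets of the Hippo pathway factors YAP and TAZ, were at 2141, 2113 and 2056 TPM and 999.7, 1069 and 984 TPM. ANKRD1, a nuclear protein that is also used as a YAP target, was at 2337, 2338 and 2281 TPM. LGALS3BP, a galectin-binding glycoprotein, was at 456 ± 1.21 TPM and THBS1, thrombospondin 1, at 211 ± 6.16 TPM. The collagens were led by COL6A1 and COL13A1, at 185 ± 5.56 TPM and 148 ± 5.51 TPM. COL1A1, the major fibroblast collagen chain, was at 2.92 ± 0.567 TPM, and its partner COL1A2 had 0 counts.

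Of 21 genes of the plasminogen and serpin list 18 were present (85.7%, against 57.4% of all protein-coding genes). PLAU, the urokinase that activates plasminogen, was at 437, 438 and 422 TPM and its receptor PLAUR at 182, 184 and 183 TPM (343 on the principal transcript). PLG, plasminogen itself, had 0 counts. F3, tissue factor, which starts clotting, was at 238 ± 2.31 TPM. Of 24 matrix metalloproteinases and their TIMP inhibitors 11 were present (45.8%), a smaller share than over all genes. MMP1, interstitial collagenase, was at 465, 498 and 478 TPM and MMP14, a membrane-bound collagenase, at 367, 359 and 371 TPM. TIMP1 was at 394, 363 and 390.1 TPM, lower than MMP1 in every library, but on the principal transcripts TIMP1 was 1.38 ± 0.107 times MMP1. MMP7, MMP8 and MMP12 had 0 counts.

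Of 38 chemokines 8 were present (21.1%) and 23 had 0 counts in all 3 libraries, against 57.4% present and 22.4% with 0 counts over all protein-coding genes. The neutrophil attractants CXCL1 and CXCL8 were at 176, 157 and 175 TPM and 121, 122 and 117 TPM, and the monocyte attractant CCL2 at 22.3, 27.3 and 25 TPM (43.5 on the principal transcript). CXCL2 was the least even of these, at 19.5, 13.7 and 11.5 TPM, and CXCL1, CXCL2 and CXCL3 are near copies whose reads may be split. Of 46 interleukins, interferons and colony-stimulating factors 17 were present (37%). CSF2 (GM-CSF) was at 149.8, 125 and 131 TPM, CSF1 at 121, 118 and 119 TPM, LIF at 111, 108 and 110.4 TPM and IL11 at 101, 98.8 and 109.8 TPM, a set that stood far above the next member, CLCF1, at 42.1 ± 1.72 TPM. IL6, the best known of its family, was low among the present genes at 1.87, 1.64 and 2.59 TPM, on 16, 14 and 22 counts. IL1A had 0 counts. TNF was also listed at 0 counts, but it lies in the HLA stretch of chromosome 6 described above.

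Of 54 growth factor genes 42 were present (77.8%, against 57.4% of all protein-coding genes), with a median of 17.7 TPM over the list against 4.39 TPM. HDGF, a nuclear protein that is also released, was at 562, 551 and 593 TPM, and DKK1, a secreted Wnt inhibitor, at 462, 480.3 and 421 TPM. HBEGF, a ligand of EGFR, was at 203 ± 7.78 TPM and TGFB1 at 184 ± 4.66 TPM. VEGFC, the lymphatic vessel growth factor, was at 190.3, 208 and 200 TPM. PTX3, a soluble pattern-recognition protein, led the complement and acute phase genes at 383, 384 and 375 TPM. HGF, the ligand of MET, and IGF1 had 0 counts.

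Within the oxygen-sensing system 15 of 16 genes were present (93.8%, against 57.4% of all). HIF1A was at 175, 195 and 184 TPM and EPAS1, which encodes HIF-2 alpha, at 24.1, 26.1 and 26.1 TPM. HIF1A was thus 7.26 ± 0.210 times EPAS1, and HIF3A, the third alpha subunit, had 0 counts. EGLN1 (PHD2), the main prolyl hydroxylase in normal oxygen, was at 84.9, 87.5 and 85.7 TPM. EGLN3 (PHD3), a hydroxylase known to be induced by HIF, was lower at 6.53, 8.53 and 6.22 TPM (12.6 on the principal transcript), a ratio of 12.3 ± 1.84 that fell to 4.65 ± 0.695 on the principal transcripts. VHL was at 72.9, 75.2 and 75.4 TPM, and CITED2, a HIF-induced protein that competes with HIF for its coactivator, at 198, 192 and 179 TPM.

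Of 59 HIF target genes 55 were present (93.2%, against 57.4% of all protein-coding genes), at a median of 33.2 TPM over the list against 4.39 TPM. The most abundant were glycolytic. ENO1, enolase, was at 1809, 1846 and 1838 TPM, PGAM1, phosphoglycerate mutase, at 1227, 1208 and 1182 TPM, and LDHA, which turns pyruvate into lactate, at 885, 904 and 899 TPM (1502 on the principal transcript). LDHA was at 15.7 ± 1.26 times LDHB, the chain that favours the reverse reaction. PGK1, phosphoglycerate kinase, was at 643, 635 and 635 TPM. ALDOA, the main aldolase of muscle and many tumours, was listed at only 5.30, 6.5 and 5.97 TPM (9.44 on the principal transcript), but 53.5% of its exon bases are shared with another gene. Over the 34 glycolysis genes 25 were present (73.5%), and the list held 1.16 ± 0.00923% of TPM.

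Of 24 glucose, lactate and proton transport genes 14 were present (58.3%, near the 57.4% of all protein-coding genes). SLC2A1 (GLUT1), the glucose carrier induced by HIF, was at 356, 363 and 356 TPM, 7.56 ± 0.0964 times SLC2A3 (GLUT3). BSG, the chaperone of lactate carriers, was at 586, 594 and 594 TPM and SLC16A3 (MCT4), a lactate exporter, at 121, 126 and 131 TPM. SLC16A1 (MCT1), a lactate carrier found in most cells, had 0 counts in all 3 libraries. HK2, the hexokinase induced by HIF, was at 228, 239.7 and 253 TPM, 1.28 ± 0.0869 times HK1, but 0.769 ± 0.0523 times on the principal transcripts.

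The best known hypoxia markers spanned a wide range. DDIT4 (REDD1), an inhibitor of mTORC1, was at 224, 216 and 239 TPM. BNIP3, a mitophagy receptor, was at 154, 153 and 144 TPM, NDRG1 at 81.6, 78.3 and 93.5 TPM (144 on the principal transcript) and ADM, the vasodilator peptide adrenomedullin, at 77.2, 81.0 and 79.9 TPM. NDRG1 was highest in sgCtrl 3. The carbonic anhydrase genes CA12 and CA9 were lower, at 21.3, 19.8 and 21.6 TPM and at 10.4, 8.27 and 9.48 TPM. CA9 rested on 72, 57 and 65 counts. VEGFA, the vessel growth factor, was at 66.5, 68.4 and 69.3 TPM (534 on the principal transcript). Its placing depends on length: VEGFC was 2.93 ± 0.0988 times VEGFA over all exon bases and 0.286 ± 0.00963 times on the principal transcripts. EPO, the textbook HIF target of kidney and liver, had 2, 0 and 1 counts.

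**Figure D4:**
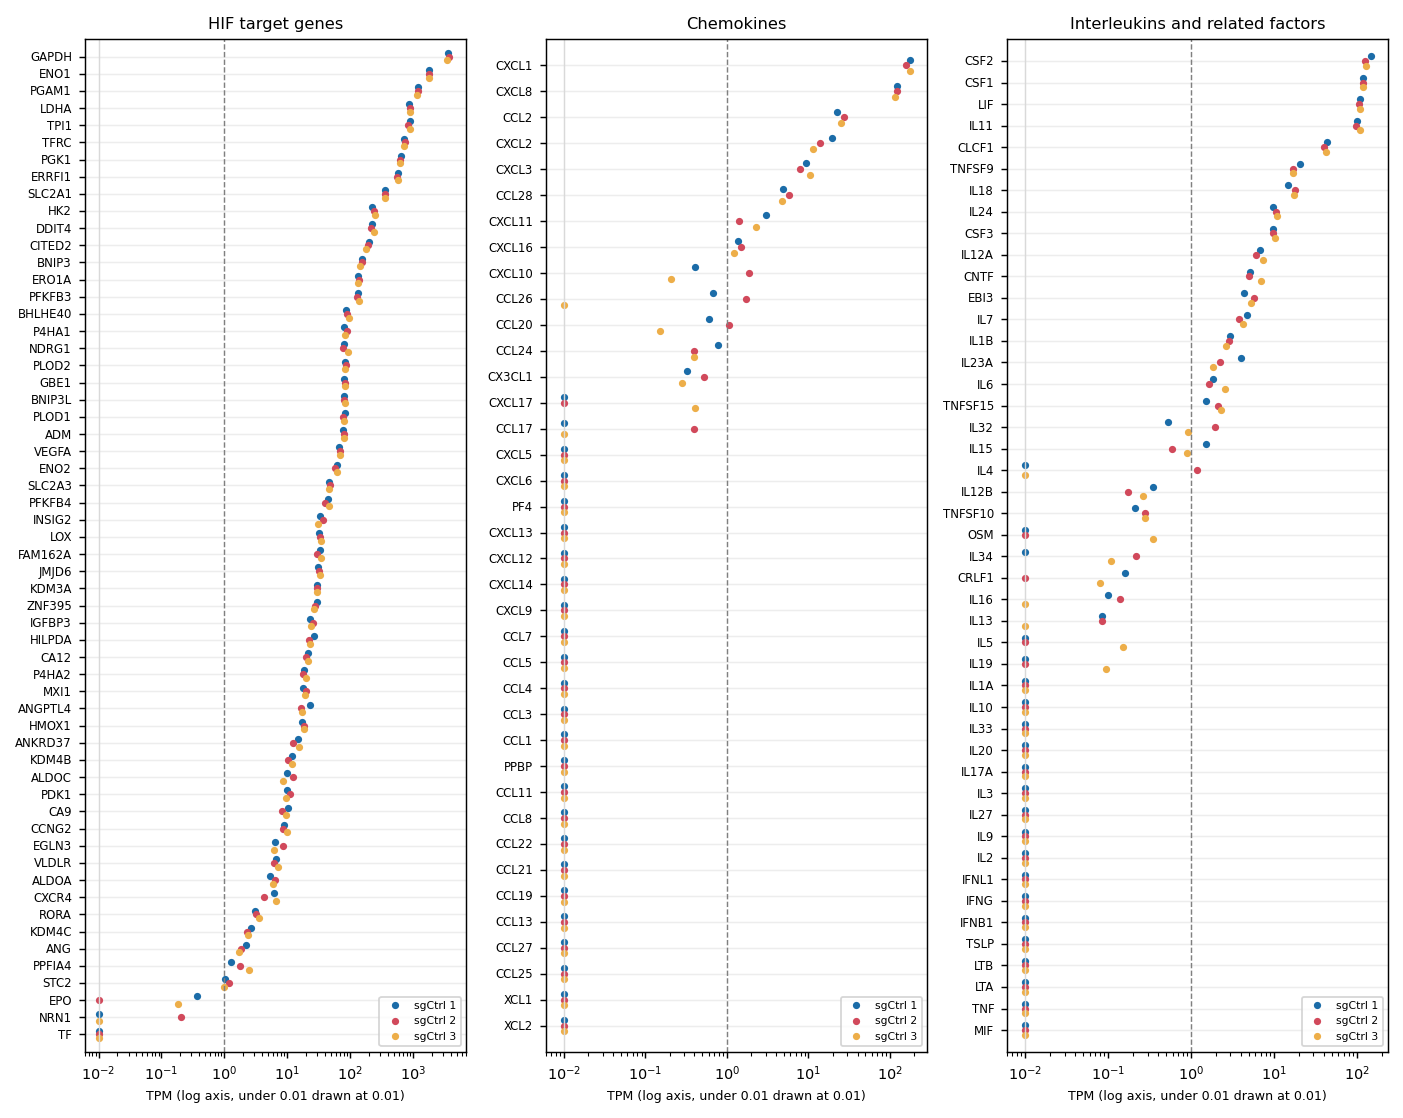
TPM (log axis) of HIF target genes, chemokines, and interleukins with related factors in each sgCtrl library, with 1 TPM dashed and values under 0.01 drawn at 0.01. GAPDH at 3610 TPM and ENO1 at 1831 TPM lead the HIF targets, while CA9 lies at 9.39 TPM and IL6 at 2.03 TPM.

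HIF binds a core of the letters ACGTG or GCGTG, and promoters were read for both on both strands, where the palindrome CACGTG counts as overlapping positions. RefSeq promoters (GRCh38.p14, 250 bases before to 50 after the start) were matched for 50 of the 59 HIF targets. The letters were found in 41 of the 50 (82%), beside 64.0% of promoters of the present protein-coding genes and 56.2% of all 14847 that matched. At least 3 positions were found in 38% of the HIF targets and 16% of the present genes. The promoters of LDHA, PGK1 and CA9 are shown as examples of abundant glycolytic targets and of a low hypoxia marker. Each is the 250 bases before the start on the plus strand, 5′ to 3′, with the searched letters in capitals. LDHA lies at chr11:18394313-18394562 and holds 5 positions, PGK1 at chrX:78103998-78104247 with 3, and CA9 at chr9:35673678-35673927 with 1.
LDHA: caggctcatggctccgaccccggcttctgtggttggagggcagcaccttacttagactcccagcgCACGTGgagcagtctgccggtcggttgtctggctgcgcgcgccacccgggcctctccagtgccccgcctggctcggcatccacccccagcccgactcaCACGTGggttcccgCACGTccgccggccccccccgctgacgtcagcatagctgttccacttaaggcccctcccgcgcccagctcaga
PGK1: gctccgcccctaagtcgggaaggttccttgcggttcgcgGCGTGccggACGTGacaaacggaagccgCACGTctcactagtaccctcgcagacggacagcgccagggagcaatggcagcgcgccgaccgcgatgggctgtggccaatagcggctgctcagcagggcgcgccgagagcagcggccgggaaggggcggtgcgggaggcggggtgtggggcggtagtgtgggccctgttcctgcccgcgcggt
CA9: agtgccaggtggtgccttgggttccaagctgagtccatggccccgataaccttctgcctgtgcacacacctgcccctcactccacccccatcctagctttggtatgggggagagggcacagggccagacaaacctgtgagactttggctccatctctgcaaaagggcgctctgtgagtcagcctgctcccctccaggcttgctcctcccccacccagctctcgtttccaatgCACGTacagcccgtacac
A match describes letters in these windows and shows neither a bound site nor the cause of a level. In the full windows LDHA held 6 positions and PGK1 held 4, while the more abundant GAPDH and ENO1 held 2 each. PGAM1 and TPI1, at 1206 ± 22.5 TPM and 883 ± 35.4 TPM, had no match in theirs.

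The control level of the genes the study set out to remove was moderate. All 9 UFMylation genes were present, against 57.4% of all protein-coding genes. Their median of 24.2 TPM was near the 26.0 TPM of all present genes. UFM1, the modifier, was at 42.2, 45.5 and 42.1 TPM, UFC1, the conjugating enzyme, at 78.3, 75.2 and 73.0 TPM and UFL1, the ligase, at 22.8, 21.6 and 21.2 TPM. DDRGK1, the ER-anchored partner of UFL1, was at 83.5, 71.6 and 93.6 TPM, the widest SD of the list. UFSP1, a UFM1 protease, was the lowest at 3.15, 3.65 and 7.33 TPM, highest in sgCtrl 3. ER chaperones were far higher, with CALR (calreticulin) at 1265, 1231 and 1304 TPM, HSPA5 (BiP) at 768, 804 and 757 TPM and HSP90B1 at 730.3, 752 and 735 TPM.

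Of 22 cell cycle genes 21 were present (95.5%, against 57.4% of all), at a median of 152.9 TPM over the list. CCND1 (cyclin D1) was at 760.1, 802 and 748 TPM, the replication clamp PCNA at 621, 596 and 584 TPM and MKI67, the source of the Ki-67 stain, at 336, 358 and 367 TPM. The member not present was CDKN2A, which encodes the CDK inhibitor p16. It is 1 of 25 consecutive protein-coding genes with a unique symbol on chromosome 9, from 20999515 to 24545946 (GRCh38), that all had 0 counts in all 3 libraries. Most of the others belong to the type I interferon cluster, and the rest include CDKN2B and the metabolic enzyme gene MTAP. Over all protein-coding genes 22.4% had 0 counts in all 3 libraries. Loss of both copies of CDKN2A is known for this line, as background. Whether the whole stretch is lost was not tested. On either side FOCAD was at 0.481, 0.966 and 0.728 TPM, and TUSC1 at 24.2, 23.6 and 26.9 TPM. Of the other breast cancer genes RB1, the retinoblastoma protein that restrains entry into S phase, was at 83.9, 87.5 and 81.5 TPM.

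The 3 libraries lay close together. Over the 11412 present genes, Pearson's r of log2 TPM between pairs of libraries was 0.994 in each case, across genes, which are not independent replicates. Only 72, 81 and 72 genes differed by at least 2-fold in the pairs 1 and 2, 1 and 3, and 2 and 3. The common biological coefficient of variation, the spread between libraries beyond counting error, was 4.37% by edgeR. The median coefficient of variation was 11.3% for genes of 1 to 10 TPM, beside 10.2% expected from counting alone, and 2.79% beside 1.82% for genes of 100 to 1000 TPM. Both medians exceeded the counting value, relatively more so for the abundant genes. The median of an SD over only 3 libraries lies below the true SD, so this comparison understates the excess.

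A chi-square test per gene on the counts, with TMM-scaled library sizes and Benjamini-Hochberg adjustment at 0.05, found 1571 of 14693 genes (10.7%) to vary beyond counting noise. The share rose from 7.03% of genes with up to 100 counts to 54.7% of those over 10000 counts. No pair of libraries agreed within sampling noise, with a mean chi-square per gene of 2.34 to 3.22 where about 1 marks noise alone. The number of calls was lowest without sgCtrl 2, at 459, against 1004 without sgCtrl 1 and 859 without sgCtrl 3.

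The most uneven genes of at least 10 TPM were of unlike kinds. TMEM14C, a mitochondrial membrane protein needed for haem synthesis, was at 12.2, 72.8 and 16.2 TPM, high in sgCtrl 2 alone, and averaged 14.2 TPM without it. KIF15, a mitotic kinesin, was at 4.75, 21.5 and 18.5 TPM, low in sgCtrl 1 alone. CALB2, the calcium-binding protein calretinin, was at 32.5, 77.0 and 22.4 TPM, again high in sgCtrl 2, and averaged 27.5 TPM without it. PSMC4, a proteasome ATPase, was at 43.2, 44.7 and 17.4 TPM, low in sgCtrl 3, and SBNO2 at 14.7, 13.9 and 30.3 TPM, high in sgCtrl 3. The other 5 were RNF187, XAGE1A, MTCH2, IFI6 and FLII. No single library was the odd one in all of these.

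**Figure D5:**
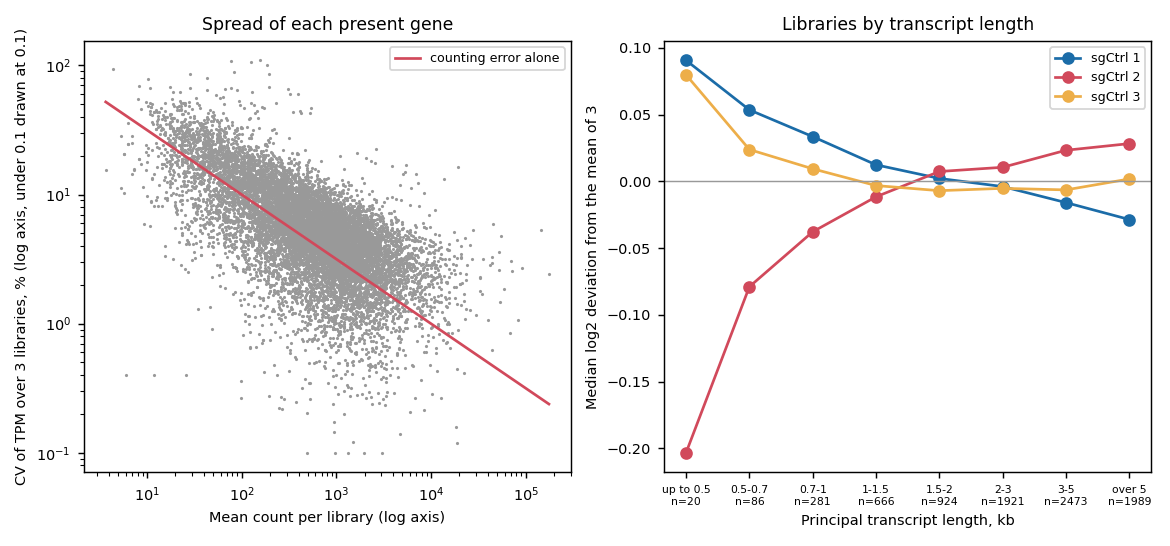
Spread between the 3 sgCtrl libraries: the coefficient of variation of TPM of each present gene against its mean count per library (log axes, values under 0.1% drawn at 0.1%, the line marks counting error alone), and the median log2 deviation of each library from the mean of the 3 by principal transcript length. The spread falls from a median of 11.3% at 1 to 10 TPM to 2.79% at 100 to 1000 TPM, and sgCtrl 2 is lowest on the shortest transcripts.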

How the data were processed

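RNA-seq gene tables of the 3 libraries labelled sgCtrl were used; the other 6 libraries of the series were not analysed here. The tools are those listed in the submitters' processing notes (featureCounts 2.0.0, STAR 2.7.7a, fastp 0.20.1; build GRCh38), whose settings and strand use the sources used here do not give. The authors deposited raw counts per gene, as whole numbers, and FPKM values. The lengths behind the deposited FPKM equalled the summed exon lengths of GENCODE release 29 (largest relative deviation 5.00e-15 over 10006 genes with over 100 counts in each library).

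Each table held 59362 rows. The 627 rows without a symbol (0.368% to 0.405% of a library's counts), 12 rows with names turned into dates and 1741 rows sharing a name are not named here; the first were left out of totals. TPM was FPKM divided by its sum over named rows, times 1000000. Gene types came from GENCODE 29, and 19895 protein-coding genes with a unique symbol were called present or low. A count of 0 allows 3 counts, and floors cover counting error only, since PCR-amplified reads are not independent molecules. With no separate cultures stated, spread and tests measure only these libraries, which may be technical repeats.

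Spread was tested by a chi-square test on counts with TMM library sizes (edgeR 4.0.16, R 4.3.3; at least 30 counts, Benjamini-Hochberg adjusted p under 0.05) and edgeR's common dispersion, after a check on simulated counts. Tables were made with pandas 2.3.3 and numpy 2.4.6 and figures with matplotlib 3.10.9. The 42 gene lists hold 1007 genes, of which 1004 were found. The members and lists were chosen with earlier results of these data known. Genes named are all members of lists of 12 or fewer, up to 6 highest and 6 low members of longer lists, the 25 most abundant protein-coding and 5 most abundant long noncoding genes, and the 10 most variable genes of at least 10 TPM. Other names were chosen for their known role after their values were seen. Only part of these is printed or drawn, and some members are not reported here. No group comparison was made.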

Additional observations from a re-analysis of the deposited data

How the results depend on the processing

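The number of present genes stayed between 9485 and 11988 and that of low genes between 4456 and 6739 under every alternative run (other thresholds, FPKM or CPM, other denominators, each library left out, shared-exon and HLA genes left out, principal transcript lengths), within 1.5 times the values reported. Present list members ranged from 474 to 614 around 584, and the common coefficient of variation from 3.45% to 4.83%, the lowest without sgCtrl 2. The share of the 50 most abundant genes was 12.9% by counts, 14.9% without mitochondrial genes, 26.1% over protein-coding genes only and 21.5% on principal transcript lengths. The median present gene was at 30.4 TPM without mitochondrial genes, 26.7 TPM on principal transcript lengths and 25.8 to 26.1 TPM with 1 library left out. Genes varying beyond counting noise numbered 755 at an adjusted p under 0.01 and 459 to 1004 with 1 library left out, where fewer samples are tested; the causes of the other changes were not tested. Of 422 gene levels, 89 moved by over 1.5 times on principal transcript lengths, an alternative chosen after seeing the data, and 10 to 13 with 1 library left out. Rows sharing a symbol were left out from the start, so keeping them in was run instead and gave 11429 present genes. Depth limits genes under about 1 TPM. No paired analysis was possible because no groups were compared.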

Other observations

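Presence moved with the share of a gene's exon bases that another annotated gene also covers. Of protein-coding genes with no shared bases 52.9% were present, of those with up to 25% shared 71.2%, of those with 75 to 99% shared 10.8%, and of the 346 with over 99% shared 0, of which 305 were low. Among gene families in use in every cell, 81 of 84 cytosolic ribosomal protein genes were present, against 57.4% of all protein-coding genes. Of 39 proteasome genes 34 were present, and PSMA8, PSMB11, PSMB8, PSMB9 and the core subunit PSMB3 were not. Of 37 NADH dehydrogenase subunit genes 33 were present, and NDUFA3, NDUFA6, NDUFA7 and NDUFS3 were not. Of 17 cytosolic aminoacyl-tRNA synthetases VARS alone was not. The part of read assignment in these values was not tested.

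The stretch of chromosome 6 from 29722775 to 33087201 (GRCh38) held 119 low genes of 137, among them HLA-G and TAP1 with 0 counts, whereas B2M, the HLA light chain on another chromosome, was at 71.6 ± 2.59 TPM (166 on the principal transcript). Outside that stretch CD74, the class II invariant chain, was at 133 ± 1.95 TPM (281 on the principal transcript) and CD274 (PD-L1), a checkpoint ligand, at 41.1 ± 1.93 TPM.

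In sgCtrl 2 short transcripts were lower than in the other libraries. For the 20 genes with a principal transcript of up to 500 bases the median log2 deviation from the mean of the 3 libraries was -0.20 in sgCtrl 2, 0.09 in sgCtrl 1 and 0.08 in sgCtrl 3, and 15 of the 20 were lowest in sgCtrl 2. For the 1989 genes over 5000 bases it was 0.03 in sgCtrl 2, -0.03 in sgCtrl 1 and 0.002 in sgCtrl 3. Over 8360 genes Spearman's correlation of the deviation with length was -0.2561 in sgCtrl 1, 0.2002 in sgCtrl 2 and 0.01757 in sgCtrl 3. A trend with length was thus not particular to sgCtrl 2, and it ran the opposite way in sgCtrl 1. MT2A, TMSB10 and S100A6, named in the report, were lowest in sgCtrl 2, and the part of transcript length in their spread was not tested.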
